A study of Mus musculus with 16 samples.

Results

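The genes described here are 60 genes of mitosis and the mitotic spindle, a list of symbols grouped into 6 steps: entry into mitosis, chromosome structure and cohesion, centromere and kinetochore, checkpoint and anaphase, spindle assembly, and midzone and cytokinesis. The list was set by gene function and not by a rule on measured values, though earlier results of these data were known. A gene was represented by its probe with the highest mean over 16 arrays. Of the 60 genes, 57 had a probe that could be named, and Aurka, Espl1 and Kif15 were not analysed here. Of these 57, 54 were well above background on at least 4 arrays and were tested, out of 31480 genes tested in all. Cdca2 and Bub1 were well above background on 0 of 16 arrays and Ect2 on 3, so these 3 genes were not tested.

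The study measured transcripts in total liver RNA from 16 male mice aged 6 weeks, on 1-colour Agilent arrays, with 1 mouse per array and 4 mice per genotype. All mice carried the same mixed background, 75% C57BL/6 and 25% SV129. CerS2 is the ceramide synthase that makes ceramides with very long acyl chains, and it is abundant in liver. The WT group is labelled CerS2 WT and the H/A group CerS2 H/A. The Del group is labelled CerS2 Del and also delHox, and the Flox group is labelled CerS2 Flox and also delneo. The labels do not describe the alleles further, and they give no Cre, promoter or cell type for any group. Cers2 itself had no probe that could be named, so the engineered gene gives no check of the genotypes. The RNA came from whole liver tissue, so fewer cells of a type and less RNA per cell cannot be told apart. The hepatocyte markers summed to 347641 to 386419 signal units over all 16 arrays, with the 4 genotypes overlapping.

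For 6 of the 16 samples (H/A replicate 4, WT replicate 3, Del replicate 1 and Flox replicates 1, 2 and 4) the scanner file listed for the sample was not from the slide and position in its label. The deposited value table followed the labels in all 16 cases, with a correlation over probes of at least 0.885 against the file at the labelled position. For those 6 samples the listed file correlated at no more than 0.168. The values below are those of the value table, which are log2 signals after the authors' normalisation. With the listed files in place of it, no listed gene was called higher in H/A or Del against WT or in Del against Flox. Of all 31480 genes, 5, 0 and 0 were called higher in these comparisons. The replicate numbers are names in order of deposition and have no further meaning.

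Mitosis begins when cyclin B and its kinase Cdk1 become active, after which condensin and topoisomerase compact the chromosomes and kinetochores assemble on the centromeres. The spindle checkpoint holds Cdc20 and the anaphase-promoting complex until every kinetochore is attached, and the chromosomal passenger complex and midzone kinesins then direct cytokinesis. Transcription of most of these genes is restricted to the late cell cycle, and the adult liver divides rarely. In many of these promoters, MuvB complexes bind a short element called CHR, near CCAAT boxes bound by NF-Y.

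Promoters of 5 genes are shown, chosen among the genes given with values for holding both a CHR element and a CCAAT box in the bases printed. That all 5 hold both elements therefore follows from the choice. Of the 5 genes, Top2a, Cdc20 and Ckap2 rose in H/A and in Del, whereas Ube2c and Fam83d were called higher in neither. Each sequence is the 120 bases before the first listed transcript start in the RefSeq table of build GRCm38.p6, on the gene's strand, 5′ to 3′. Capitals mark CHR elements (TTTGAA or TTCGAA, on either strand) and CCAAT boxes (on either strand).
Top2a, chr11:99024190-99024309, minus strand: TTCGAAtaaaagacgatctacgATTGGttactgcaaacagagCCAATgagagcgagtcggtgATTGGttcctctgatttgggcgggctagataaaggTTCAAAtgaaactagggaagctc
Cdc20, chr4:118437344-118437463, minus strand: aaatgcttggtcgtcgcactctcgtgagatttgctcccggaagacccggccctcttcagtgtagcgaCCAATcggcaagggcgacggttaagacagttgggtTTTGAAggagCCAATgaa
Ckap2, chr8:22185820-22185939, minus strand: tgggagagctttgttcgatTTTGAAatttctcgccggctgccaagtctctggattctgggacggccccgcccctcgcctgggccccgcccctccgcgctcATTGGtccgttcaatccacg
Ube2c, chr2:164769809-164769928, plus strand: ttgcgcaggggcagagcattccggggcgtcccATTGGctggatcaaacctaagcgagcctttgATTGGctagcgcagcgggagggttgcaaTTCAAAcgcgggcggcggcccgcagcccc
Fam83d, chr2:158767979-158768098, plus strand: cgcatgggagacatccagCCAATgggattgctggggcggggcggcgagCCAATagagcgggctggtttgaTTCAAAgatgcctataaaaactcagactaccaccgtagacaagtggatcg
The nearest CHR element begins 23 bases before the start in Top2a, 18 in Cdc20, 101 in Ckap2, 29 in Ube2c and 50 in Fam83d. Of the 60 genes, 50 had a promoter of 300 bases in the RefSeq table. A CHR element lay in 41 of these 50 (82%), against 19.4% of all 27025 promoters of that length. A CCAAT box lay in 39 of 50 (78%), against 37.9% of all promoters, and both elements lay in 35 of 50 (70%), against 7.70%. The E2F-type sequence GGCGGGAA lay in 1 of 50 promoters, against 2.24% of all. Among the 32 genes with a promoter entry that were called higher in both H/A and Del, 23 held a CHR element, and among the other 18 genes all 18 did. Of these 18, 3 were called higher in Del alone on the probe used (Bub1b, Kif20b and Kif23). A further 5 were not tested or not analysed, and 10 were called higher in neither mutant, such as Ube2c and Fam83d.

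Most of the tested genes had higher signals in both CerS2 mutants than in WT. In H/A, 40 of 54 were called higher and 0 lower, by limma with Benjamini-Hochberg adjustment over all genes and a threshold of 0.05. Over all genes, 7.08% were called higher and 2.97% lower in that comparison. In Del, 43 of 54 were called higher and 1 lower, against 8.85% and 4.38% of all genes. The median change of the tested genes was 1.74 in H/A and 2.33 in Del on the log2 scale, whereas the median over all genes was -0.09 and -0.11. Every H/A array lay above every WT array for 40 of the 54 genes, against 9.02% of all genes, and every Del array for 44, against 10.6%. The filter on dim probes bears on these counts, since 20 of the 54 were above background on fewer than 4 of the 8 WT and Flox arrays and passed through the mutant arrays. Of the 23 genes above background on all 16 arrays, 11 were called higher in H/A and 12 in Del. The matching share over all genes was not counted. With no filter, 34 of 57 were called higher in H/A and 44 of 57 in Del. Over all genes, 1819 of 47102 were then called higher in H/A and 2402 in Del.

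The level of the whole set can be read array by array as the median over the 54 genes of the signal minus the gene's WT mean. It was 1.59, 1.79, 1.41 and 2.38 in the H/A mice and 2.56, 2.16, 2.47 and 1.84 in the Del mice. It was -0.01, 0.51, -0.24 and -0.06 in the WT mice and 0.57, 0.62, -0.02 and -0.02 in the Flox mice. All 8 mutant mice lay above all 8 control mice, and H/A and Del overlapped. Of the control mice, WT replicate 2 and Flox replicates 1 and 2 stood above the rest. Tested genes well above background numbered 23 to 41 on WT arrays and 29 to 40 on Flox arrays. They numbered 49 to 54 on H/A arrays and 52 to 54 on Del arrays. The filter on dim probes shapes this gap, since 20 of the 54 genes passed it through the mutant arrays. The spread was wider than for a typical gene: the median SD within WT was 0.55 for these genes and 0.25 over all genes.

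**Figure D1:**
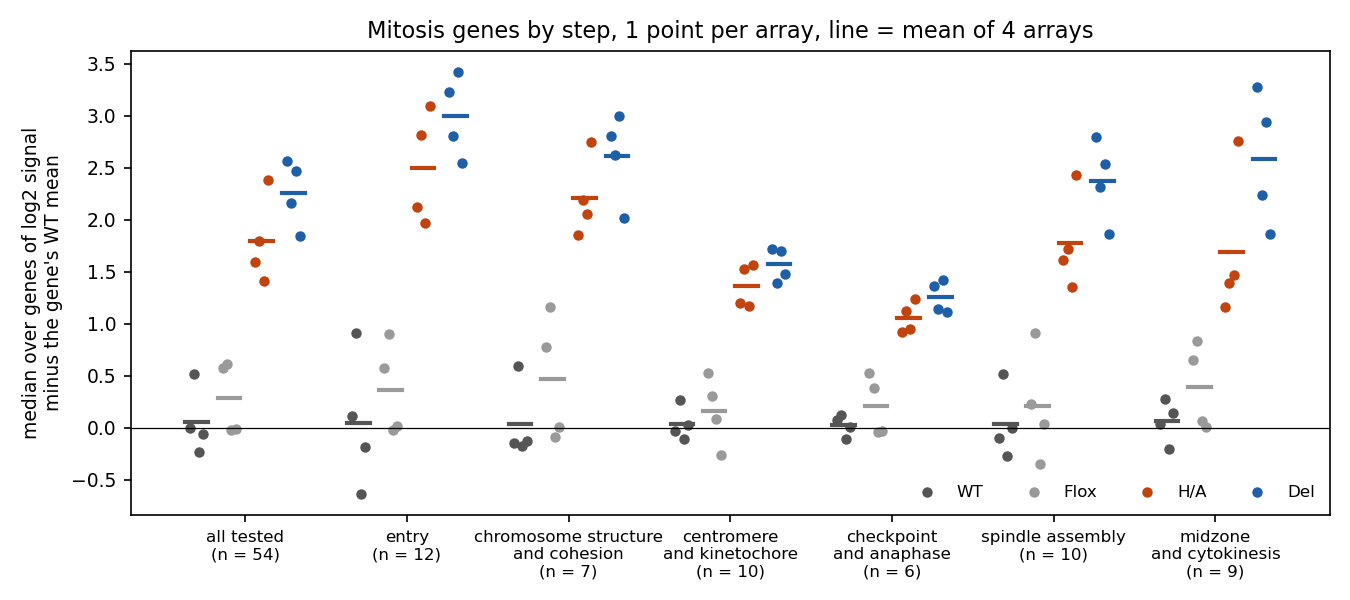
Median over the tested genes of each step of the log2 signal minus the gene's WT mean, 1 point per array, with the mean of 4 arrays as a line. The H/A and Del points lie above all WT and Flox points in each step, with the largest mean, 3.00, for the entry genes in Del and the smallest mutant mean, 1.06, for the checkpoint and anaphase genes in H/A.

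Slide was a batch in the labels: 8 arrays lay on each of 2 slides, and each slide held all 4 genotypes. Within the first slide (3 H/A, 2 WT, 1 Del and 2 Flox arrays) the median change of the 54 genes was 1.36 in H/A and 2.47 in Del against WT, with 0 and 7 called higher. On that slide 0.0349% and 0.318% of all genes were called higher, with Del represented by replicate 1 alone. Within the second slide (1 H/A, 2 WT, 3 Del and 2 Flox arrays) it was 2.52 and 2.30, with 29 and 39 called higher, against 1.38% and 5.78% of all genes, with H/A represented by replicate 4 alone. With the labelled slide as a block over all arrays, 38 and 43 were called higher. Where 1 array stood alone in its group, it was assumed to vary like the others.

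Macrophage markers moved with the same mice. Of 14 Kupffer cell and macrophage markers tested, 10 were called higher in H/A and 8 in Del, with 1 lower in Del (Cd163). Their summed signal ranged from 4577 to 8606 in WT and 5412 to 7883 in Flox, and from 9811 to 19699 in H/A and 10468 to 11749 in Del. None of these markers was at background on all arrays, and their part in the mitotic genes was not tested. Erythroid markers summed to 5467 to 7670 in WT, 5266 to 8287 in Flox, 6143 to 16146 in H/A and 8854 to 14557 in Del. Of 8 tested, 0 were higher and 1 (Alas2) lower in H/A, and 1 was higher in Del. Their median change was -0.35 in H/A and -0.29 in Del. Only 2 of the 8, the globin genes Hba-a2 and Hbb-bt, had mutant means above the WT mean. The part of these markers was not tested either. Neutrophil markers were called higher for 3 of 9 in H/A and 1 of 9 in Del, with summed signals that overlapped between WT (4597 to 6533), H/A (4843 to 6136) and Del (4534 to 6461). No lymphocyte marker of 8 tested was called. Hepatocyte markers were called for 1 of 9 in H/A and 0 of 9 in Del.

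**Figure D2:**
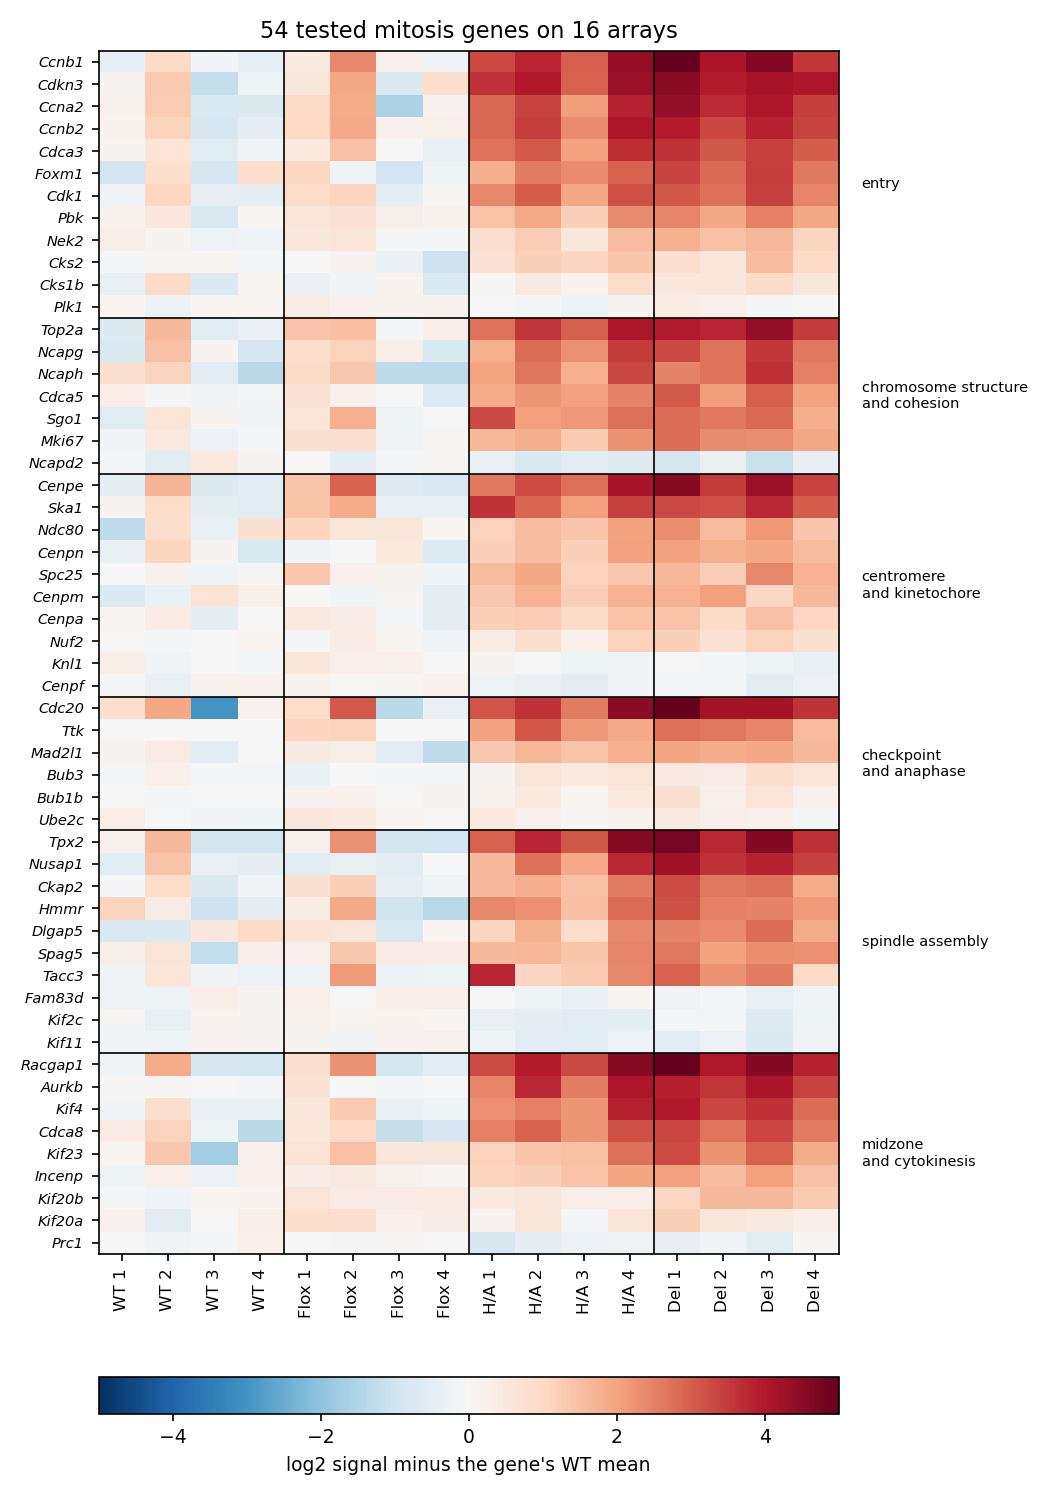
Log2 signal minus the gene's WT mean for the 54 tested genes (rows, by step and then by the change in Del) on 16 arrays (columns). In each step a block of genes is high on all H/A and Del arrays, and 11 genes near the foot of the steps, such as Plk1, Ncapd2, Knl1, Ube2c and Prc1, are not.

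Genes of entry into mitosis were called higher for 10 of 12 tested in H/A and 10 of 12 in Del, with median changes of 2.54 and 3.01. Ccnb1, the cyclin B that activates Cdk1, had log2 signals of 1.42, 2.83, 1.69 and 1.43 in WT, 2.31, 4.24, 2.06 and 1.65 in Flox, 5.13, 5.63, 4.81 and 6.22 in H/A, and 7.35, 5.93, 6.42 and 5.38 in Del. It was well above background on no WT array, on 1 Flox array and on all 8 mutant arrays, and the mutants did not overlap the controls. Against the background level in WT it rose at least 3.74-fold in H/A and at least 6.6-fold in Del (limma adjusted p = 0.000959 and 0.000122). Such lower bounds set the mean of the bright group against the dimmest signal marked above background on each array of the dim group (or against the gene's reading there if it exceeded that signal).

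A further 18 of the 54 genes were above background on some WT arrays. They were above it on 1 of 4 for Ccna2, Cdkn3, Ncapg, Cenpe, Cenpn, Mad2l1, Ckap2, Tpx2, Racgap1 and Kif23, on 2 for Ndc80, Hmmr and Cdca8, and on 3 for Ccnb2, Pbk, Top2a, Cdc20 and Spag5. Their changes against WT therefore include WT readings at background, and the sizes given for them are fitted values over all 4 WT arrays.

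Ccnb2, the second mitotic cyclin B, was measured on nearly all arrays, with 4.43, 5.36, 3.39 and 3.77 in WT, 5.22, 6.13, 4.44 and 4.49 in Flox, 7.13, 7.69, 6.58 and 8.28 in H/A, and 8.16, 7.59, 8.09 and 7.62 in Del. Every mutant mouse exceeded every control mouse, by 3.18 ± 0.45 (SE) in H/A and 3.63 ± 0.45 in Del against WT (adjusted p = 0.000712 and 0.000141). Cdca3, which promotes degradation of the Cdk1 inhibitory kinase Wee1, was above background on all 16 arrays. Its signals were 5.43, 5.96, 4.66 and 5.06 in WT, 5.78, 6.75, 5.27 and 4.91 in Flox, 7.99, 8.35, 7.27 and 8.96 in H/A, and 8.88, 8.38, 8.70 and 8.32 in Del. The 2 mutants did not overlap the controls, and the gene rose 7.3-fold in H/A and 9.81-fold in Del (adjusted p = 0.000596 and 0.000111). Cdkn3 encodes a phosphatase that acts on cyclin-dependent kinases, and its signals were 3.70, 4.87, 2.40 and 3.36 in WT, 4.15, 5.53, 2.87 and 4.45 in Flox, 7.18, 7.57, 6.53 and 7.90 in H/A, and 8.09, 7.50, 7.72 and 7.62 in Del. It changed by 3.71 ± 0.52 and 4.15 ± 0.52 on the log2 scale (adjusted p = 0.000646 and 0.000142). A second Cdkn3 probe changed by 0.36 and 0.42 and was not called.

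Cdk1, the mitotic kinase itself, rose by 2.65 in H/A and 2.93 in Del. The cyclin A gene Ccna2 rose by 3.05 and 3.91. Foxm1, a transcription factor of late cell cycle genes, was above background on no WT or Flox array and rose at least 2.2-fold in H/A and at least 3.44-fold in Del. The kinases Pbk and Nek2 and the Cdk-binding protein Cks2 rose by 1.05 to 1.72 in H/A and by 0.98 to 2.21 in Del. The related Cks1b was called in neither, with 0.40 and 0.65.

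Plk1, the polo-like kinase that drives mitotic entry and spindle formation, had signals of 9.13, 8.72, 9.11 and 9.11 in WT, 9.41, 9.25, 9.19 and 9.20 in Flox, 8.99, 8.93, 8.73 and 9.15 in H/A, and 9.40, 9.26, 8.97 and 8.98 in Del. H/A and Del overlapped WT, while all 4 Flox arrays lay above every WT and H/A array. The difference was -0.07 in H/A (95% interval -0.36 to 0.22) and 0.14 in Del (-0.16 to 0.43), and neither was called by limma (adjusted p = 0.747 and 0.479).

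**Figure D3:**
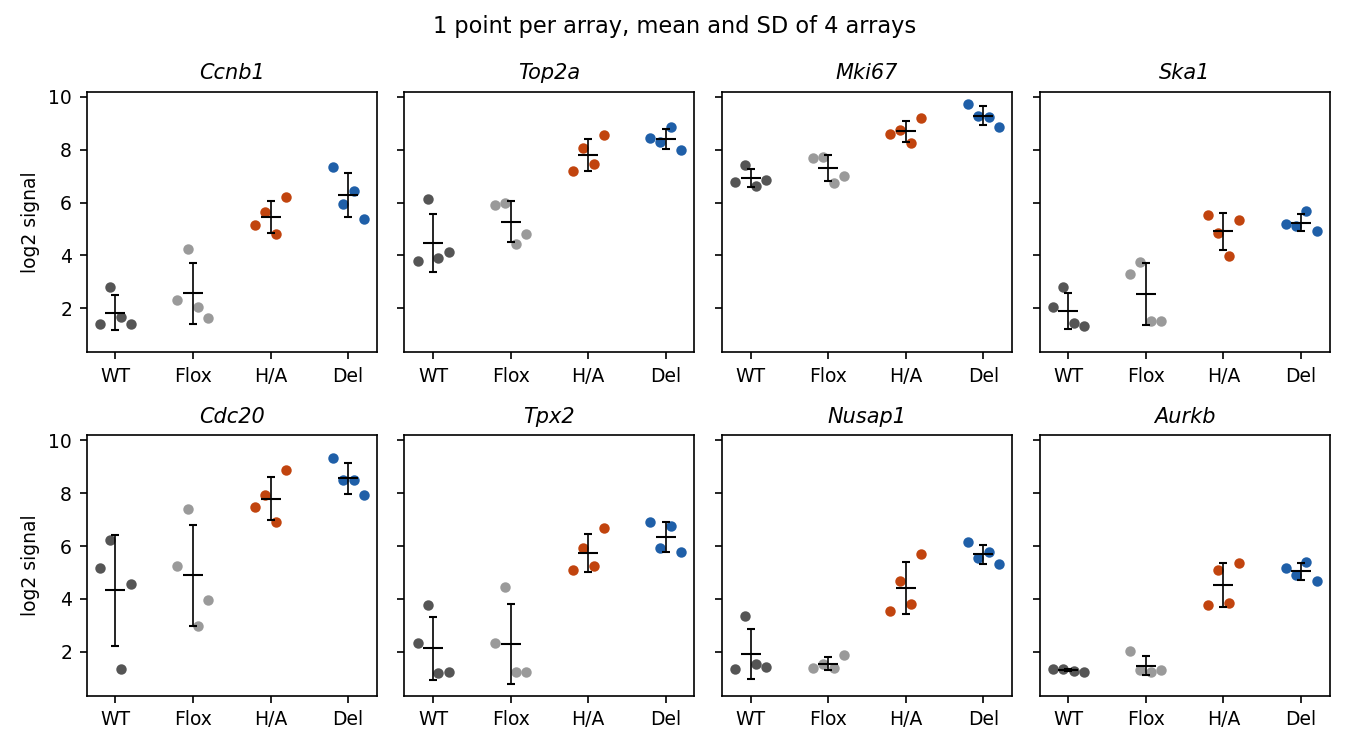
Log2 signal of 8 of the genes described in the text by genotype, 1 point per array, with the mean and SD of 4 arrays. All 4 H/A and 4 Del points of each gene lie above all 4 WT points, and WT replicate 2 and Flox replicate 2 lie nearest to the mutants for several genes, as for Cdc20 with 6.24 and 7.40.

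Genes of chromosome structure and cohesion were called higher for 6 of 7 tested in H/A and 6 of 7 in Del, with 1 lower in Del. Top2a, the topoisomerase that untangles sister chromatids, had signals of 3.78, 6.12, 3.89 and 4.14 in WT, 5.89, 5.97, 4.44 and 4.83 in Flox, 7.19, 8.06, 7.46 and 8.53 in H/A, and 8.45, 8.29, 8.87 and 7.99 in Del. WT replicate 2 stood above the other WT mice and below all mutant mice. Top2a rose 10-fold in H/A and 15.1-fold in Del (limma adjusted p = 0.000852 and 0.000135). Mki67, the Ki-67 protein that coats mitotic chromosomes and is the common marker of dividing cells, was above background on all 16 arrays. Its signals were 6.78, 7.43, 6.64 and 6.85 in WT, 7.70, 7.71, 6.75 and 7.01 in Flox, 8.58, 8.74, 8.25 and 9.18 in H/A, and 9.73, 9.27, 9.25 and 8.87 in Del. It rose 3.39-fold in H/A and 5.11-fold in Del with no overlap with the controls (adjusted p = 0.000967 and 6.76e-05).

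Cdca5, sororin, which holds sister chromatids together, was not well above background on any WT array. Its signals were 3.15, 2.78, 2.66 and 2.76 in WT, 3.56, 3.04, 2.84 and 2.19 in Flox, 4.69, 5.03, 4.89 and 5.31 in H/A, and 5.90, 4.92, 5.83 and 4.85 in Del. It rose at least 2.7-fold in H/A and at least 3.55-fold in Del, again with no overlap (adjusted p = 0.000499 and 7.04e-05). Sgo1, the shugoshin that protects centromeric cohesion, rose at least 1.94-fold and at least 1.87-fold. The condensin subunit gene Ncaph rose at least 2.85-fold and at least 3.73-fold, and its call in H/A was lost under 9 of 31 alternatives. Ncapg, another condensin subunit, rose by 2.59 and 3.04 on the log2 scale. Ncapd2, a condensin I subunit, went the other way on the probe used, with 7.27, 6.77, 7.80 and 7.48 in WT, 7.33, 6.90, 7.24 and 7.38 in Flox, 6.97, 6.57, 6.75 and 6.69 in H/A, and 6.44, 6.95, 6.22 and 6.91 in Del. The groups overlapped, and Ncapd2 fell by 0.70 in Del (adjusted p = 0.0415), a call kept under 14 of 31 alternatives, while its difference of -0.58 in H/A was not called (adjusted p = 0.0827).

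Genes of the centromere and kinetochore were called higher for 8 of 10 tested in both mutants, with median changes of 1.50 in H/A and 1.68 in Del. Ska1, part of the complex that couples kinetochores to microtubule ends, had signals of 2.04, 2.82, 1.46 and 1.34 in WT, 3.31, 3.76, 1.53 and 1.53 in Flox, 5.52, 4.84, 3.96 and 5.34 in H/A, and 5.20, 5.12, 5.69 and 4.93 in Del. It was above background on all mutant arrays and on no control array, and rose at least 2.58-fold in H/A and at least 3.22-fold in Del (adjusted p = 0.00192 and 0.000554). Cenpa, the histone H3 variant that marks the centromere, had 6.97, 7.23, 6.40 and 6.87 in WT, 7.36, 7.24, 6.78 and 6.43 in Flox, 8.07, 8.12, 7.82 and 8.28 in H/A, and 8.29, 7.82, 8.35 and 7.91 in Del. The shift was smaller and as regular, at 2.3-fold in H/A and 2.33-fold in Del (adjusted p = 0.00338 and 0.00185).

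Cenpm, of the constitutive centromere network, had 5.79, 6.17, 7.17 and 6.82 in WT, 6.48, 6.29, 6.56 and 6.05 in Flox, 7.83, 8.23, 7.70 and 8.21 in H/A, and 8.24, 8.54, 7.52 and 8.09 in Del. No mutant mouse overlapped a control mouse, and the gene rose 2.84-fold and 3.06-fold. Of 2 further Cenpm probes, the first rose by 2.34 and 2.19, and the second, at 0.59 and 0.31, was not called. Spc25, of the Ndc80 complex that binds microtubules, had 5.80, 5.97, 5.58 and 5.85 in WT, 7.16, 6.00, 5.99 and 5.68 in Flox, 7.38, 7.72, 6.96 and 7.16 in H/A, and 7.48, 7.01, 8.21 and 7.52 in Del. Flox replicate 1 reached the range of the mutants, and the gene rose 2.83-fold in H/A and 3.38-fold in Del against WT (adjusted p = 0.00529 and 0.00115). Its partners Ndc80 and Nuf2 rose by 1.52 and 0.65 in H/A and by 1.86 and 0.96 in Del. In H/A the Ndc80 call was lost under 7 and the Nuf2 call under 10 of 28 alternatives, listed files and single slides aside. The motor gene Cenpe was above background on 1 WT array, and its fitted changes were 3.20 and 3.93. Cenpn, which reads Cenpa nucleosomes, rose by 1.49 and 1.82.

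The 2 remaining genes were not called. Cenpf, of the outer kinetochore, changed by -0.32 and -0.26. Knl1, the platform for checkpoint proteins, had on the probe used 9.13, 8.69, 8.86 and 8.75 in WT, 9.42, 9.11, 9.13 and 8.88 in Flox, 9.01, 8.85, 8.61 and 8.70 in H/A, and 8.86, 8.75, 8.61 and 8.47 in Del, with the mutants inside the WT range or just below it (intervals -0.38 to 0.25 in H/A and -0.49 to 0.13 in Del).

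Genes of the checkpoint and anaphase were called higher for 4 of 6 tested in H/A and 5 of 6 in Del. Cdc20, which activates the anaphase-promoting complex, had 5.16, 6.24, 1.34 and 4.56 in WT, 5.24, 7.40, 2.97 and 3.96 in Flox, 7.47, 7.92, 6.92 and 8.85 in H/A, and 9.31, 8.50, 8.49 and 7.92 in Del. The WT mice spread from 1.34 to 6.24, and all H/A and Del mice lay above them. It rose by 3.47 ± 0.95 in H/A and 4.23 ± 0.95 in Del (limma adjusted p = 0.0319 and 0.00871). The H/A call was lost under 9 of 31 alternatives, among them leaving out H/A replicate 2, 3 or 4 or WT replicate 3 or 4. Mad2l1, the checkpoint inhibitor of Cdc20, had 3.58, 3.85, 2.88 and 3.48 in WT, 3.91, 3.74, 2.93 and 2.19 in Flox, 4.78, 5.09, 4.87 and 5.22 in H/A, and 5.41, 5.32, 5.40 and 5.06 in Del. Every mutant mouse was above every control mouse, though only 1 WT array was above background, and the fitted rise was 2.92-fold and 3.61-fold (adjusted p = 0.00553 and 0.00103).

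Ttk, the checkpoint kinase Mps1, had 1.19, 1.19, 1.20 and 1.20 in WT, 2.27, 2.30, 1.20 and 1.20 in Flox, 3.19, 4.32, 3.36 and 3.11 in H/A, and 3.94, 3.82, 3.63 and 2.79 in Del. It was above background on 2 H/A arrays, 2 Del arrays and no control array, so it was called higher (adjusted p = 0.000646 and 0.000285) but its fold over WT could not be bounded. Bub3 rose by 0.48 in H/A and 0.59 in Del. Bub1b, the BubR1 checkpoint protein, rose by 0.46 in Del and differed by 0.31, not called, in H/A. Of 31 alternatives, the Bub3 call was lost under 23 in H/A and 7 in Del, and the Bub1b call in Del under 13. Ube2c, the ubiquitin-conjugating enzyme of the anaphase-promoting complex, had 8.54, 8.16, 8.07 and 7.98 in WT, 8.77, 8.66, 8.30 and 8.20 in Flox, 8.69, 8.39, 8.24 and 8.34 in H/A, and 8.69, 8.52, 8.46 and 8.11 in Del. All 4 genotypes overlapped, and the intervals were -0.14 to 0.59 in H/A and -0.11 to 0.62 in Del.

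Genes of spindle assembly were called higher for 7 of 10 tested in both mutants, with medians of 1.83 and 2.35. Tpx2, which activates Aurora A on spindle microtubules, had 2.34, 3.75, 1.21 and 1.22 in WT, 2.34, 4.43, 1.22 and 1.23 in Flox, 5.09, 5.93, 5.25 and 6.67 in H/A, and 6.89, 5.92, 6.74 and 5.79 in Del. The mutants lay above all controls, 1 WT array being above background, by a fitted 3.60 ± 0.67 in H/A and 4.20 ± 0.67 in Del (adjusted p = 0.00425 and 0.000932). Nusap1, a microtubule bundling protein, had 1.36, 3.34, 1.55 and 1.41 in WT, 1.38, 1.55, 1.39 and 1.89 in Flox, 3.53, 4.67, 3.80 and 5.69 in H/A, and 6.13, 5.53, 5.76 and 5.32 in Del. It was above background on 3 H/A arrays, 4 Del arrays and no control array, and rose at least 1.83-fold in H/A and at least 4.39-fold in Del (adjusted p = 0.00355 and 0.000122).

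Spag5, astrin, which stabilises kinetochore attachments, had 3.75, 4.11, 2.23 and 3.79 in WT, 3.74, 4.83, 3.89 and 3.84 in Flox, 5.08, 5.13, 4.86 and 5.91 in H/A, and 6.10, 5.50, 5.79 and 5.76 in Del. It rose 3.42-fold in H/A and 4.98-fold in Del (adjusted p = 0.00662 and 0.000732), but a second Spag5 probe, at -0.30 and -0.35, was not called. Ckap2, a spindle microtubule protein, had 3.46, 4.46, 2.82 and 3.39 in WT, 4.31, 4.74, 3.14 and 3.36 in Flox, 5.17, 5.37, 5.0 and 6.15 in H/A, and 6.79, 6.15, 6.28 and 5.39 in Del. It was above background on 1 WT array and rose a fitted 3.7-fold and 6.14-fold with no overlap between mutants and controls (adjusted p = 0.0102 and 0.000788). Hmmr, a centrosomal and spindle protein, rose by 2.25 and 2.57, and its call in H/A was lost under 8 of 31 alternatives. A second Hmmr probe differed by 0.42 in H/A, not called, and rose by 1.01 in Del (adjusted p = 0.0282). Dlgap5, which stabilises kinetochore fibres, was above background on no WT array and rose at least 1.22-fold and at least 2.17-fold. The Dlgap5 call in H/A was lost under 11 of 30 alternatives. Tacc3, a partner of clathrin on the spindle, rose at least 1.17-fold and at least 1.21-fold. Listed files and single slides aside, its call was lost under 13 alternatives in H/A and 9 in Del.

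The kinesins measured in this step were not called against WT. Kif11, the Eg5 motor that separates spindle poles, differed by -0.39 in H/A and -0.41 in Del, and Kif2c, a microtubule depolymerase, by -0.46 and -0.25. Fam83d, which recruits casein kinase 1 to the spindle, had 6.26, 6.20, 6.80 and 6.61 in WT, 6.71, 6.49, 6.75 and 6.76 in Flox, 6.44, 6.24, 6.11 and 6.58 in H/A, and 6.27, 6.37, 6.08 and 6.30 in Del. It differed by -0.12 and -0.21 from WT, with overlapping groups (intervals -0.44 to 0.19 and -0.53 to 0.11).

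Genes of the midzone and cytokinesis were called higher for 5 of 9 tested in H/A and 7 of 9 in Del, with medians of 1.69 and 2.58. Aurkb, the kinase of the chromosomal passenger complex, had 1.35, 1.37, 1.28 and 1.26 in WT, 2.04, 1.32, 1.26 and 1.31 in Flox, 3.77, 5.10, 3.86 and 5.36 in H/A, and 5.18, 4.89, 5.40 and 4.70 in Del. It had the smallest p of the 54 genes against WT in both mutants. Aurkb was above background on 3 H/A arrays, 4 Del arrays and no control array, and rose at least 1.96-fold in H/A and at least 2.82-fold in Del (adjusted p = 4.94e-05 and 8.19e-06). Its partner Incenp, the scaffold of the complex, was measured on all arrays, with 5.28, 5.76, 5.18 and 5.74 in WT, 5.85, 5.95, 5.69 and 5.58 in Flox, 6.60, 6.70, 6.93 and 7.47 in H/A, and 7.54, 7.03, 7.53 and 6.94 in Del. It rose 2.71-fold and 3.41-fold with no overlap (adjusted p = 0.000841 and 9.65e-05). Cdca8, borealin, the third subunit measured, rose by 2.71 and 2.98.

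Kif4, the chromokinesin that limits midzone length, had 1.54, 2.49, 1.37 and 1.36 in WT, 2.22, 2.98, 1.34 and 1.42 in Flox, 3.97, 4.20, 3.91 and 5.52 in H/A, and 5.68, 5.03, 5.34 and 4.47 in Del. It was above background on all mutant and no control arrays and rose at least 1.8-fold and at least 2.99-fold (adjusted p = 0.00122 and 0.00013). Racgap1, of the centralspindlin complex, was above background on 1 WT array and rose by a fitted 3.76 ± 0.66 in H/A and 4.36 ± 0.66 in Del. Its partner Kif23 rose by 2.58 in Del, while 1.69 in H/A narrowly missed the threshold (adjusted p = 0.0509). Kif20a, a midzone motor, was called in neither (0.32 and 0.66).

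Kif20b, a late mitotic kinesin, had 3.38, 3.20, 3.54 and 3.56 in WT, 4.07, 3.84, 3.85 and 3.83 in Flox, 3.91, 3.98, 3.74 and 3.70 in H/A, and 4.44, 5.03, 5.04 and 4.73 in Del. The Del mice stood above all others, and the gene rose at least 2.33-fold over WT (adjusted p = 3.98e-05), while in H/A it was not called (0.41, adjusted p = 0.0734). A second Kif20b probe had means of 3.07 in WT, 3.00 in Flox, 4.39 in H/A and 4.65 in Del. On that probe the rise of 1.32 in H/A was called (limma adjusted p = 0.00285 over all probes). Prc1, which bundles the antiparallel microtubules of the midzone, had on the probe used 5.46, 5.24, 5.33 and 5.68 in WT, 5.46, 5.33, 5.49 and 5.44 in Flox, 4.60, 4.98, 5.13 and 5.17 in H/A, and 5.01, 5.30, 4.81 and 5.47 in Del. The difference was -0.46 in H/A and -0.28 in Del, and neither was called.

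For 3 of the genes that did not rise, another probe of the same gene gave a different answer. The probes are shown by their first 30 bases, as printed on the array, because the call turned on which was read.
Prc1, probe used: atttacaaaaccaaattagaaaaggaaaaa
Prc1, other probe 1: aacgctgagggagacaaaggaatcgaggcg
Prc1, other probe 2: cacactgactgatcttgaaaacctgtcagt
Knl1, probe used: gctcctccctcctcccttttagttcacaag
Knl1, other probe: gctttgtgctccaattcagactcagatgca
Ncapd2, probe used: tggtgcagtatctgcaggatgcctacggct
Ncapd2, other probe: cactttccctttctccgagcctgtgccaat
On other probe 2, Prc1 signals were 3.17, 4.25, 1.30 and 2.59 in WT, 3.39, 4.33, 1.76 and 1.90 in Flox, 5.79, 6.33, 6.03 and 7.21 in H/A, and 7.61, 6.90, 7.53 and 6.43 in Del, so that all 8 mutant mice lay above all 8 controls. On other probe 1 the H/A mean was 4.37 ± 0.34 (SD, n = 4) and the Del mean 4.84 ± 0.61, against 3.03 ± 0.72 in WT. On its other probe, Knl1 signals were 2.37, 1.45, 1.53 and 1.89 in WT, 1.48, 3.05, 2.43 and 2.55 in Flox, 4.46, 4.11, 3.37 and 4.28 in H/A, and 5.23, 4.37, 4.67 and 4.06 in Del, again with no overlap. The other Ncapd2 probe had means of 5.99 ± 0.05 in WT, 6.13 ± 0.13 in Flox, 6.89 ± 0.29 in H/A and 7.03 ± 0.22 in Del, and was above background on all 16 arrays, as was the probe used. In each of these 3 genes the probe with the highest mean was not one that rose. Of the 54 tested genes, 43 had at least 1 probe called higher in H/A and 46 in Del, against 7.46% and 9.59% of all genes counted the same way. The added genes were Ncapd2, Knl1 and Prc1 in both, and Kif20b in H/A. Bub3 dropped out in H/A, at an adjusted p of 0.0531 over all probes.

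**Figure D4:**
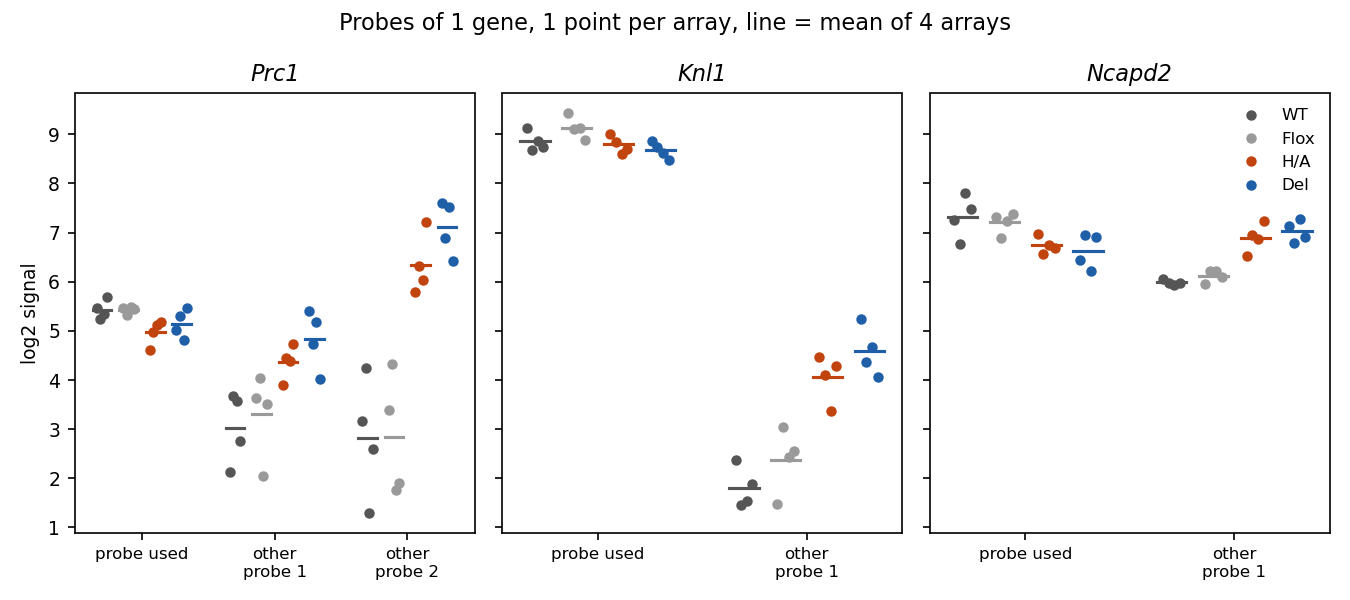
Log2 signal of each probe of Prc1, Knl1 and Ncapd2 by genotype, 1 point per array, with the mean of 4 arrays as a line. On the other probe 2 of Prc1 and the other probes of Knl1 and Ncapd2 the 8 mutant arrays lie above the 8 control arrays, and on the probes used they do not.

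The 11 genes called higher in neither mutant were Cenpf, Cks1b, Fam83d, Kif11, Kif20a, Kif2c, Knl1, Ncapd2, Plk1, Prc1 and Ube2c. The probe used was above background on all 16 arrays for all 11, and for 12 of the 43 genes that were called. Some of these probes had unusual base composition: 81.1% of the bases were C or T in the Kif11 probe and 80% in the Ube2c probe. The median share of C or T was 57.1% in the 11, 56.3% in the 43 called genes and 53.2% over all probes. The median longest run of C or T was 8 bases in the 11, 6 in the 43 and 6 over all probes. What this has to do with their levels was not tested.

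The means compared in Del against Flox use none of the arrays of H/A and WT. The limma p-values use each gene's spread over all 16 arrays, so the calls are not independent of those arrays. In Del against Flox 43 of the 54 genes were called higher and 5 lower, against 16.6% and 18.2% of all genes. The median change was 1.87 (all genes, -0.14). Every Del array lay above every Flox array for 42 genes, against 15.9% of all genes. All 40 genes called higher in H/A against WT were also called higher here, which is 100% of that list and 93.0% of the 43. The same overlap was not counted over all genes. The 3 added genes were Cks1b, Kif20b and Kif23. Nusap1 was above background on no Flox array and rose at least 4.84-fold (limma adjusted p = 6.23e-05). Aurkb rose at least 3.1-fold (adjusted p = 9.13e-06), and Top2a 8.69-fold (adjusted p = 0.00057).

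Markers of other cells moved between Del and Flox as well. Macrophage markers were called higher for 8 of 14 and lower for 3. Stellate cell and fibroblast markers were called higher for 5 of 10 (Acta2, Col1a1, Col1a2, Dcn and Rgs5), with a median change of 0.57, and summed to 10541 to 13702 in Del and 8813 to 9583 in Flox. Of the cholangiocyte markers 1 of 6 was higher (Sox9), of the sinusoidal endothelial markers 2 of 10 were lower (Stab1 and Ptprb), and of the erythroid markers 1 of 8 was higher and 3 lower. Neutrophil and hepatocyte markers had 1 of 9 higher each, and lymphocyte markers 0 of 8. The part of these markers in the mitotic genes was not tested.

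The 5 genes that fell against Flox, all on the probe used, were Ncapd2 by 0.58, Kif11 by 0.51, Knl1 by 0.46, Fam83d by 0.42 and Kif2c by 0.39. For Kif11, Knl1, Fam83d and Kif2c no Del array overlapped a Flox array. Of 31 alternatives, the call was kept under 23 for Kif11, 19 for Knl1, 17 for Fam83d, 10 for Kif2c and 10 for Ncapd2. With the median over a gene's probes the Knl1 change turned to 0.87 (adjusted p = 0.00746) and that of Ncapd2 to 0.16. The difference between the H/A effect over WT and the Del effect over Flox was tested directly: no gene of the 54 was called, 2 were under an unadjusted p of 0.05 (Nusap1 and Kif20b), and 1 of all 31480 genes was called.

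**Figure D5:**
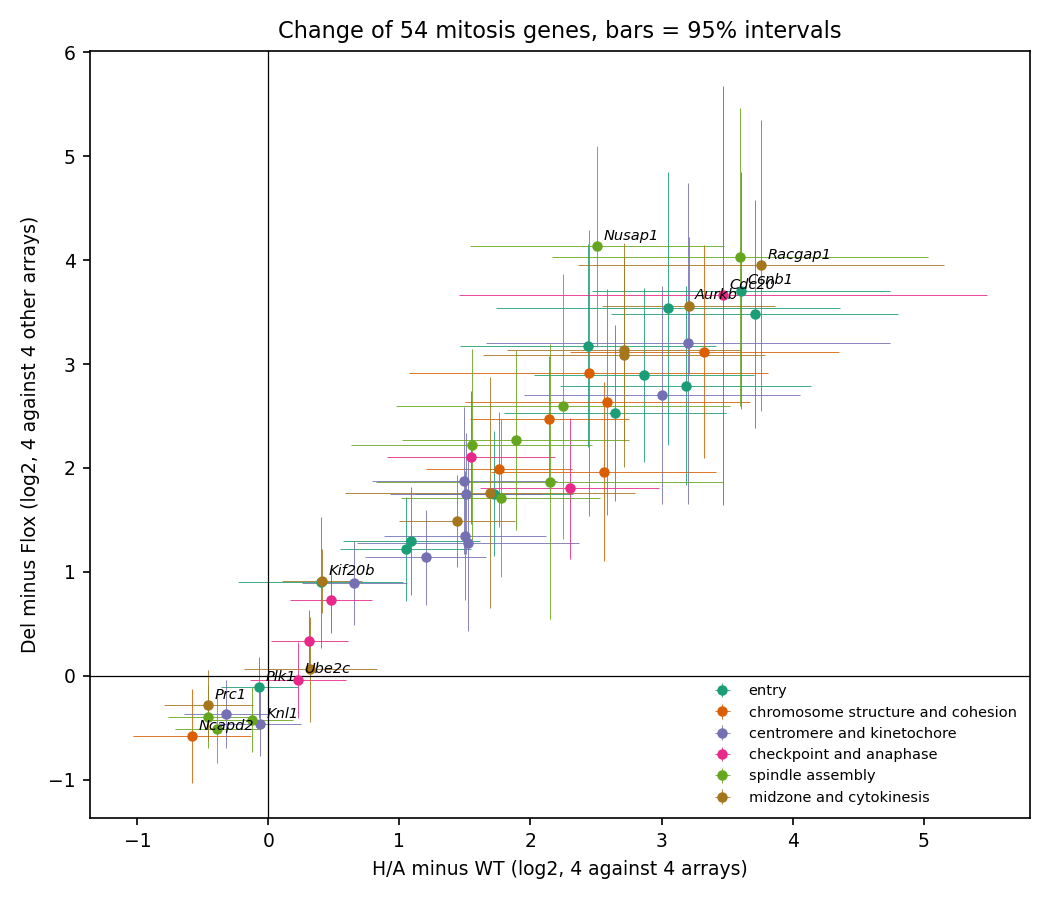
Change of the 54 tested genes in H/A against WT (x axis, log2) and in Del against Flox (y axis, log2), whose means share no array. The 95% intervals use each gene's spread over all 16 arrays, and colours mark the step. All 40 genes called higher in H/A lie above 0 on both axes, and Prc1, Knl1, Ncapd2, Plk1 and Ube2c lie near or below 0 on at least 1 axis.

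No gene of the 54 was called in Flox against WT by limma, with 0.00318% of all genes called higher and 0.0191% lower, and 2 genes (Kif20a and Kif20b) were under an unadjusted p of 0.05. The median change was 0.28, and the 2 Flox mice on the first slide were higher than the 2 on the second. For Ccnb2, the largest of these differences, the interval ran from -0.12 to 1.79, so a rise of some size was not detectable with 4 mice per group. Within the first slide the median change was 0.39 and within the second 0.05.

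H/A was also set against Del. Of the 54 genes 0 were called higher and 1 lower in H/A than in Del, against 0.00953% and 0.00318% of all genes. That gene was Kif20b, lower by 0.98 on the log2 scale (limma adjusted p = 0.0413), a call kept under 3 of 31 alternatives. On the second Kif20b probe the means were closer, at 4.39 ± 0.51 (SD) in H/A and 4.65 ± 0.17 in Del. For 6 of the 54 genes the H/A mean was the higher one and for the rest the lower, with a median difference of -0.33. For Top2a the difference was -0.59 (-1.62 to 0.43) and for Ccnb1 -0.82 (-1.96 to 0.32). The sign was not the same on both slides. The median difference was -0.84 within the first slide, where Del was represented by replicate 1 alone. It was 0.23 within the second, where H/A was represented by replicate 4 alone.

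Other genes of mitosis, not among the 60, were listed separately. Of 66 in this list 54 were tested, and 17 were called higher and 0 lower in H/A, 21 and 0 in Del against WT, and 23 and 4 in Del against Flox. The shares of all genes called higher and lower were 7.08% and 2.97% in H/A, 8.85% and 4.38% in Del against WT, and 16.6% and 18.2% in Del against Flox. The median changes were 0.26, 0.42 and 0.44. Arhgap11a had 2.52, 2.86, 1.34 and 1.60 in WT, 3.90, 3.15, 3.13 and 2.94 in Flox, 4.49, 5.60, 5.24 and 5.52 in H/A, and 5.63, 4.97, 5.94 and 5.07 in Del. It rose at least 3.17-fold in H/A and at least 3.61-fold in Del (adjusted p = 0.000159 and 4.53e-05). Ncapg2, a condensin II subunit, rose at least 1.4-fold and at least 1.35-fold. Stmn1, which destabilises microtubules, was bright on all arrays and rose 4.99-fold and 7.25-fold. The 4 genes that fell in Del against Flox were Ncapd3, a condensin II subunit, by 0.48, Nsl1, of the Mis12 kinetochore complex, by 0.49, Pkmyt1, an inhibitory kinase of Cdk1, by 0.49, and Sass6, of centriole assembly, by 0.51.

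Transcriptional regulators of these genes were listed separately. Of 13 DREAM, MuvB and E2F genes tested (19 listed), 0 were called in H/A and 1, lower, in Del against WT. In Del against Flox 1 was called higher and 2 lower. The shares of all genes in these comparisons are those given for the other mitosis genes. E2f7, a repressor of the E2F family, had 6.48, 6.57, 6.81 and 6.54 in WT, 6.87, 6.79, 6.93 and 6.69 in Flox, 6.26, 6.48, 5.91 and 6.57 in H/A, and 5.84, 5.82, 5.85 and 5.75 in Del. It fell by 0.79 in Del against WT (adjusted p = 0.00163) and by 1.01 against Flox, and was not called in H/A (-0.29). Mybl2, which joins MuvB to activate mitotic genes, fell by 0.62 in Del against Flox and was not called against WT (-0.33). Lin54, the MuvB subunit that binds CHR, differed by -0.28 and -0.16, not called. E2f2, an activator, rose by 1.98 against Flox, and its 1.02 and 1.25 over WT were not called.

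Of 7 inhibitors of cyclin-dependent kinases 6 were tested. Cdkn1a, the p21 inhibitor that is induced by p53, had 6.12, 10.86, 7.27 and 7.52 in WT, 6.94, 8.38, 8.29 and 6.97 in Flox, 8.08, 9.62, 9.73 and 11.16 in H/A, and 11.69, 10.96, 10.36 and 9.55 in Del. WT replicate 2, at 10.86, lay within the range of the mutants. Cdkn1a rose by 2.70 ± 0.84 in Del (adjusted p = 0.0468), and its 1.71 ± 0.84 in H/A was not called (adjusted p = 0.169). Against Flox, Cdkn1a was called higher in Del, by 3.00, with every Del array above every Flox array. Cdkn2d rose by 0.99 in H/A and by 0.74 in Del against Flox. Cdkn1c fell by 0.37 in Del against Flox. Cdkn1b, the p27 inhibitor, differed by 0.41 and 0.35, not called.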

How the data were processed

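Per the file headers and the submitters' processing notes, the arrays were read with Agilent Feature Extraction (version 11), whose background-subtracted intensity per spot and flags were deposited, and Partek was used after it. The log2 value table was deposited by the authors; its 16 columns behaved as quantile-normalised log2 intensities, and the normalisation method is not given in the sources used here. Of 60037 probes, 36264 were given a gene symbol, by matching the transcript named for the probe to RefSeq genes where it matched 1 gene only. Probes marked well above background on 4 or more of the 16 arrays were kept, by the flags in the file at each label's slide and position, and the probe with the highest mean stood for a gene. limma 3.58.1 (R 4.3.3) was fitted to all 16 arrays with 1 coefficient per genotype, with Benjamini-Hochberg adjustment over 31480 genes. The script was tested on simulated data. Each array is 1 mouse. The number of arrays limits the precision.

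In each step, values in every sample are given for the 3 genes with the smallest p against WT in H/A and in Del, and for the one with the largest p in Del. Genes that fell, were untested or have bounds are named too. Further lists name the 3 smallest p and every gene that fell. The genes and lists were chosen with earlier results of these data known. Of the lists of cell type markers, cholangiocyte genes (0 of 6 called in either mutant), stellate cell and fibroblast genes (1 of 10 higher in each) and sinusoidal endothelial genes (0 of 10 in H/A, 1 of 10 lower in Del) are given here, against WT. Alternatives covered scaling, background correction, the filter, the slide, moderation, array weights, the arrays in the fit, the choice of probe, and leaving out each array. The set of 10 arrays whose listed file was at the labelled position was chosen after seeing the data.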

Additional observations from a re-analysis of the deposited data

Results flagged for a closer look

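In 9 of 140 groups of 4 arrays examined, 1 array stood far from the other 3, where chance alone would flag about 1 in 20 groups. WT replicate 2 accounted for 5 of them. Its Top2a signal was 6.12 on the log2 scale (the other WT arrays, 3.78 to 4.14), Nusap1 3.34 (1.36 to 1.55), Kif4 2.49 (1.36 to 1.54), and its median deviation over the chromosome structure and cohesion genes was 0.59 (-0.18 to -0.13). Its Plk1 signal was the lowest of the group, 8.72 (9.11 to 9.13). In Flox replicate 2, Spag5 was the highest at 4.83 (3.74 to 3.89) and Fam83d the lowest at 6.49 (6.71 to 6.76). In Flox replicate 1, Aurkb was the highest at 2.04 (1.26 to 1.32) and Kif20b at 4.07 (3.83 to 3.85). Nusap1, Aurkb and Kif4 were not well above background in WT or Flox, so their spread there is partly that of the background.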

How the results depend on the processing

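The counts of genes called higher in H/A against WT, Del against WT and Del against Flox (40, 43 and 43) stayed within 1.5 times under most alternatives. With the scanner files as listed for each sample they were 0, 0 and 0, against 5, 0 and 0 of all 31480 genes. Within the first slide they were 0, 7 and 2, with only 1 to 3 arrays per group. With the slide of the listed file name as a block, Del against WT gave 28. With the 10 arrays whose listed file was at the labelled position, chosen after seeing the data, H/A against WT gave 25 and Del against Flox 21. Leaving out each array in turn gave 32 (without H/A replicate 4) to 42 (without WT replicate 2) for H/A against WT, 39 to 44 for Del against WT, 39 to 44 for Del against Flox (both lowest without Del replicate 3), and 0 to 0 for Flox against WT and for H/A against Del. Of all 31480 genes, H/A against WT gave 1543 called higher without H/A replicate 4 and 3784 without WT replicate 2. Del against WT gave 1062 with the slide of the listed file name as a block and 1601 without Del replicate 3. Del against Flox gave 3173 without Del replicate 3. Of 126 called rises over the first 3 comparisons, 73 held under all 28 settings other than the listed files and single slides. A further 39 were lost under 1 to 3 of them and 14 under more, among them Bub3 and Tacc3 in H/A and Bub1b in Del. A change of sign was seen for 4 values: Kif23 in Del against Flox was -0.011 with the listed files, and with the median over probes Ncapd2 was 0.17 in Del against WT and 0.16 in Del against Flox, and Knl1 was 0.87 in Del against Flox. With no scaling between arrays the median of all genes in H/A against WT moved from -0.09 to 0.37, and 45 genes of the set were called higher. Of all 31480 genes, 9414 were called higher with no scaling, against 2230 in the results above. Genes called lower ranged from 0 to 5 in H/A against WT (0 in the results above), 0 to 2 in Del against WT (1) and 0 to 6 in Del against Flox (5). The causes of these changes were not tested, beyond the smaller number of arrays. No paired analysis was possible because the labels carry no replicate numbers. Signal over background limits 13 of the 54 genes, whose level in WT is only an upper bound, and 10 more that were above background on 1 WT array.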
